A study of Mus musculus with 9 samples.

Results

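The DNA replication machinery was taken as 50 named genes, each read by the probe set whose platform annotation gives exactly that symbol, with the highest-mean probe set where a gene had several. All 50 had such a probe set, out of 19938 genes named on the arrays, and all 50 were among the 16582 genes tested. Gene expression was measured in cultured primary muscle cells of wild type Balb/c mice on 9 Affymetrix arrays. The 3 groups of 3 arrays were cycling myoblasts at day 0, myotubes after 2 days and myotubes after 5 days in differentiating medium, with no transgene or drug named for any group. The growth protocol in the labels gives one serum-rich medium for all samples, so the change of medium is known only from the titles. Nothing says whether the 3 arrays of a group came from separate cultures or animals. A p-value here therefore weighs a difference of group means only against the spread of deposited values within groups. That spread may be purely technical.

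Before a cell divides, the origin recognition complex, Cdc6 and Cdt1 load the ring of Mcm2 to Mcm7 onto DNA, which licenses an origin. In S phase the kinase Cdc7 with Dbf4 fires the origin by bringing Cdc45 and the GINS complex to the ring, and the polymerases, sliding clamp, clamp loader and ligase then copy both strands from nucleotides that ribonucleotide reductase and thymidylate enzymes supply. Myoblasts leave the cell cycle for good as they become myotubes, and E2F factors with their pocket-protein partners are textbook regulators of these genes.

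Levels are log2 values from RMA, which summarises the probes of a probe set. The authors ran RMA for each replicate set, and the arrays of a time point have nearly the same distribution whereas those of different time points do not. Time points were thus not put on one scale before deposit, and a general shift from one to the next could come from the cells or from that step. Each change is therefore a pair of log2 fold changes (log2FC). The first of a pair uses the deposited values, and the second the common scale, where all 9 arrays were quantile-normalized together. The median log2FC of all genes tested was -0.01 and 0.09 at day 2 and -0.37 and 0.17 at day 5, both against cycling myoblasts. A gene is said to rise or fall where limma's adjusted p was under 0.05 and the change at least 2-fold in one direction on both scales. Deposited values of replicates were nearly identical, which makes SEs and p-values small. Of the 150 SDs of the members over a group's 3 arrays, 95 were 0 (within a tolerance of 1e-06), and the largest was 0.34, for Lig1 at day 5. Of all probe sets, 51.4% to 67.8% had the same value on 2 arrays of a time point, and 0% on arrays of different time points. Whether such ties come from the samples or from RMA run per set was not tested, so small p-values are not taken as agreement between cultures. The sizes are therefore given ahead of the p-values.

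Replication genes fell together. At day 2, 45 of the 50 were lower than in cycling myoblasts and 0 were higher, against a background of 8.41% of all genes tested called lower and 6.04% higher. At day 5, 42 were lower and 0 higher, against 12.3% and 4.44%. The largest adjusted p of limma among the calls was 1.15e-06 at day 2 and 7.95e-07 at day 5, both for Lig1. The 50 genes had a median log2FC of -2.32 (deposited) and -2.07 (common scale) at day 2, and of -2.98 and -2.21 at day 5. On the deposited values alone, 47 were lower at day 2 and 48 at day 5, against 12.0% and 29.2% of all genes tested, and 0 were higher, against 6.39% and 4.44%. With the common scale alone the counts were 45 and 42 lower, against 8.45% and 12.3%, and 0 higher, against 7.73% and 11.8%. Members ranged from -5.48 and -5.30 (Mcm6) to -0.06 and 0.20 (Rpa3) at day 2. In whole cultures, fewer cells in cycle and less RNA per cell cannot be told apart. Every one of the 50 members lay above the array median before differentiation. At day 2, 13 were under it: Cdc6, Gmnn, Mcm6, Cdc7, Gins1, Mcm10, Pola1, Prim1, Pole2, Dut, Timeless, Clspn and Chaf1b. A further 2, Orc1 and Pole, were at or below the 30th percentile on all 3 arrays at day 2. At day 5, 14 were under the median: Orc1, Cdc6, Mcm6, Cdc7, Dbf4, Gins1, Mcm10, Pola1, Prim2, Pole, Pole2, Tyms, Clspn and Chaf1b. The table has no measure of background, so the exact sizes of those falls are not known.

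**Figure D1:**
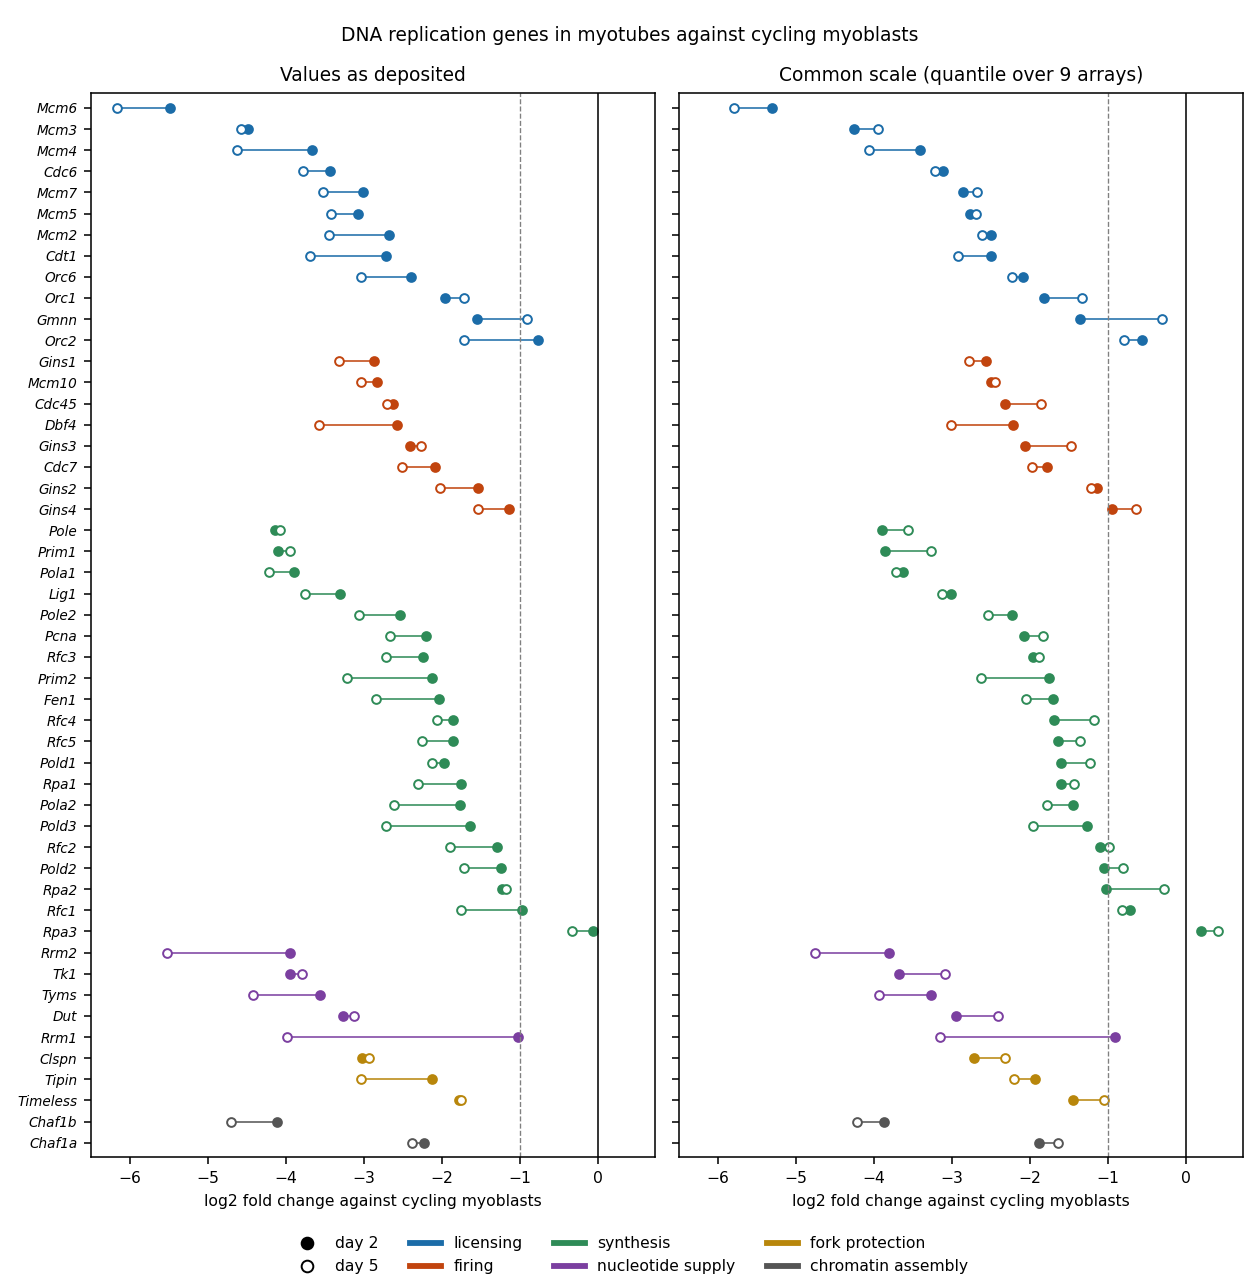
Log2 fold change of each of the 50 genes against cycling myoblasts at day 2 (filled) and day 5 (open), as deposited (left) and on the common scale (right), 1 row a gene, coloured by step and ordered within a step by the day 2 value on the common scale; the dashed line marks a 2-fold fall. Most points lie left of the dashed line on both scales, Rpa3 stays near 0, and Rrm1 has the longest line between its day 2 and day 5 points.

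Promoter letters are shown because the members moved together. RefSeq windows of 300 bases (250 before to 50 after a transcript start, GRCm38.p6) were at hand for 41 members, in 48 windows. They were searched on both strands for E2F letters (TTTGGCGC, TTTCCCGC, TTTGCCGC or TTTCGCGC, which may overlap each other), for CCAAT and for TTTGAA, the letters of the CHR element of cell cycle genes. E2F letters were in 15 of the 48 windows (31.2%), against 2.26% of all 32851 windows and 3.29% of 16311 windows of the other tested genes. CCAAT was in 26 (54.2%), against 37.4% and 36.8%, and TTTGAA in 8 (16.7%), against 17.9% and 12.5%. The median GC content was 60.7% in member windows, 52.7% in all and 59.3% in those of other tested genes. A match of letters is a description and not a binding site. By step, E2F letters were found in 7 of 10 licensing genes with a window, 1 of 5 firing genes, 6 of 17 synthesis genes, 0 of 5 nucleotide supply genes, 1 of 2 fork protection genes and 0 of 2 chromatin assembly genes. The 15 genes with the letters had a median log2FC at day 2 of -3.01 and -2.71, and the 26 without them -2.14 and -1.83, a description with no test. The 4 upstream stretches that follow hold E2F letters before the start and outside any gene body of RefSeq. A further 3, of Rrm1, Rrm2 and Pcna, hold no exact match and are shown beside them. Near matches were not counted: Rrm1 holds gttcccgc and Rrm2 holds tctcccgc, which differ from TTTCCCGC in 1 base each. At day 2 Rrm2 (log2FC -3.94 and -3.81) fell more than Mcm5, Gins3 and Rfc3 and less than Mcm6. The log2FC was -2.20 and -2.07 for Pcna. For Rrm1 it was -1.02 and -0.90, the smallest of these changes and short of 2-fold on the common scale. The stretch of Pcna is cut short where the neighbouring gene Cds2 begins. Capitals mark E2F letters (8 bases, 12 where matches on both strands overlap) and CCAAT or its reverse ATTGG (5 bases), and each is written 5′ to 3′ along the gene.
Mcm6: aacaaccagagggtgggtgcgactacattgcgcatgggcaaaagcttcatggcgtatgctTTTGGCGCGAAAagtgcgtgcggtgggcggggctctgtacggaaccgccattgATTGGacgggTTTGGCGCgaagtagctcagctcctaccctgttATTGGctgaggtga
Mcm5: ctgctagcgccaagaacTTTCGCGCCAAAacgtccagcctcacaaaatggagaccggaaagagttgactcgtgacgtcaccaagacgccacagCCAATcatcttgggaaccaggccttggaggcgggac
Gins3: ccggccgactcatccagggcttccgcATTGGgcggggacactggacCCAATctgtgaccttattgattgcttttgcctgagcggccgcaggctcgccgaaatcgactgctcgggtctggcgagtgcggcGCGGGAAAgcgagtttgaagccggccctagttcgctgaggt
Rfc3: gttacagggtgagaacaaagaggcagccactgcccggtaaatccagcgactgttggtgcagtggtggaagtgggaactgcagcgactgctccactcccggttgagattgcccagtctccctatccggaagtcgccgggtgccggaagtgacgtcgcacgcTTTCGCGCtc
Rrm1: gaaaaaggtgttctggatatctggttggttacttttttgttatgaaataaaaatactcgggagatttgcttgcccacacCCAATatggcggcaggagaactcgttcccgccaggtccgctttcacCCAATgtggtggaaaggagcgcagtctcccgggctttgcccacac
Rrm2: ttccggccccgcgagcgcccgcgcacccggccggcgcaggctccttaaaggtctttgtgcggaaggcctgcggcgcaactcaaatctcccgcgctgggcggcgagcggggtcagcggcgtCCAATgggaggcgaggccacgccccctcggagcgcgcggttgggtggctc
Pcna: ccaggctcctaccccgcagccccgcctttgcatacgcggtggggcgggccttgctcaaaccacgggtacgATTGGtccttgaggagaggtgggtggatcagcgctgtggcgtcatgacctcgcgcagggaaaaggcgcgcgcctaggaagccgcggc
The stretches lie at chr1:128359706-128359875 (minus strand, Mcm6), chr8:75109339-75109467 (plus, Mcm5), chr8:95633389-95633558 (plus, Gins3), chr5:151651209-151651378 (minus, Rfc3), chr7:102441525-102441694 (plus, Rrm1), chr12:24708084-24708253 (plus, Rrm2) and chr2:132253181-132253337 (minus, Pcna). All end at the base before the annotated start except that of Mcm5, which ends 42 bases before the start of the window's transcript, where the gene body begins. Mcm6 held 3 matches of E2F letters, at -110, -106 and -47, the first pair overlapping on opposite strands. Mcm5 held an overlapping pair at -153 and -149.

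**Figure D2:**
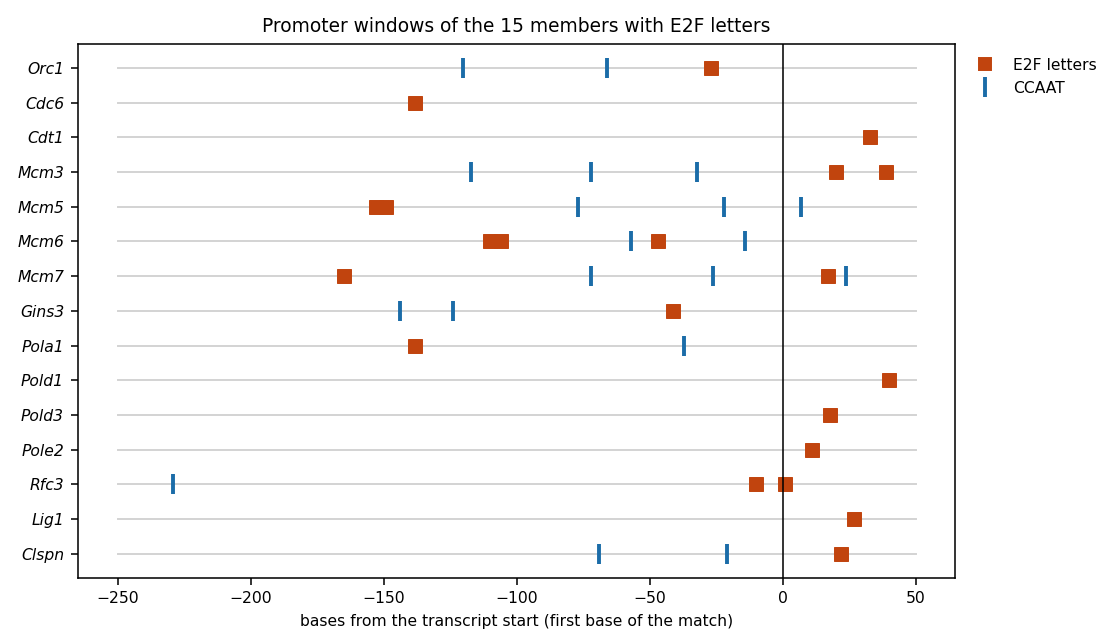
First base of each match to E2F letters (squares) and CCAAT (bars) in the 300-base windows of the 15 members with E2F letters, as distance in bases from the transcript start. For 8 of the 15 genes at least 1 match of E2F letters lies wholly before the start.

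Origin licensing genes fell at 11 of 12 members at day 2 and 10 of 12 at day 5, with a median log2FC of -2.87 and -2.63 at day 2 and -3.48 and -2.68 at day 5. The helicase subunit Mcm6 showed the largest fall of all 50 genes. It read 9.35, 9.38 and 9.38 on the arrays of cycling myoblasts, 3.90 on all 3 arrays of day 2, and 3.07, 3.26 and 3.26 at day 5. The groups were far apart, with log2FC -5.48 and -5.30 at day 2 and -6.17 and -5.79 at day 5. Its later levels were under the array median, so the sizes are not exact. Mcm3 read 8.94 on every cycling array, 4.45 at day 2 and 4.36 at day 5 on every array, with log2FC -4.49 and -4.25 at day 2 and nearly all of its fall in place by then. Mcm4 read 8.69, 8.87 and 8.86, then 5.14 on all arrays, then 4.18 on all arrays. Its log2FC was -3.66 and -3.40 at day 2 and -4.63 and -4.06 at day 5. The remaining ring subunits fell less. Their log2FC at day 2 was -2.67 and -2.50 for Mcm2, -3.08 and -2.77 for Mcm5 and -3.01 and -2.85 for Mcm7.

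The loaders Cdc6 (log2FC -3.43 and -3.11 at day 2) and Cdt1 (log2FC -2.72 and -2.49) fell as well. Subunits of the origin recognition complex differed in size. Orc6 fell by day 2 (log2FC -2.40 and -2.09) and so did Orc1 (log2FC -1.96 and -1.82), whose day 2 level of 2.92 was at or below the 30th percentile of the arrays. Orc2, the third, read 7.85 before differentiation, 7.09 at day 2 and 6.13 at day 5, each on all 3 arrays. These levels do not overlap, but as deposited 48.8% of all genes tested were lower without overlap at day 2 and 47.0% higher. The change of Orc2 stayed under 2-fold on both scales at day 2 (log2FC -0.76 and -0.56) and on the common scale at day 5 (log2FC -1.72 and -0.79). Geminin (Gmnn), the inhibitor of Cdt1, read 5.12, 3.57 and 4.22 at the 3 time points, each on all 3 arrays. It fell at day 2 (log2FC -1.55 and -1.36), to a level under the array median, and its day 5 level lay between the others. At day 5 it did not reach 2-fold on either scale (log2FC -0.90 and -0.30).

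**Figure D3:**
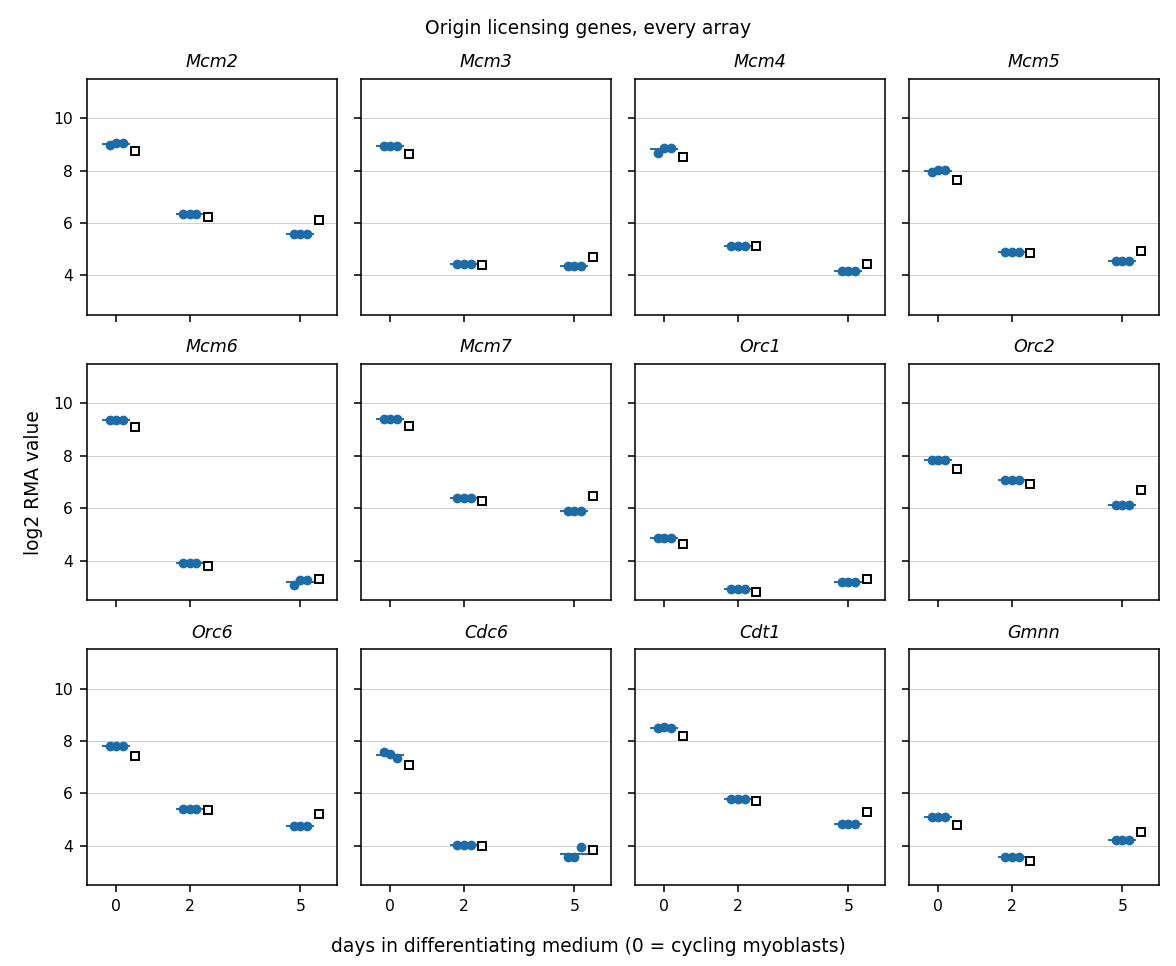
Log2 RMA values of the 12 licensing genes on every array against days in differentiating medium (0 is cycling myoblasts); filled points are the 3 arrays as deposited, lines their mean and open squares the group mean on the common scale. Mcm2 to Mcm7 drop between days 0 and 2, Orc2 declines least by day 2, and Gmnn is higher at day 5 (4.22) than at day 2 (3.57).

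Of the 8 genes of origin firing, 7 fell at day 2 and 7 at day 5, with a median log2FC of -2.49 and -2.13 and of -2.60 and -1.91. Gins1, a subunit of the GINS complex, read 6.72 before differentiation, 3.85 at day 2 and 3.39 at day 5, each on all 3 arrays (log2FC -2.87 and -2.56 at day 2). Mcm10, which helps to start the active helicase, read 6.74, 6.79 and 6.79 in cycling myoblasts, 3.94 on all arrays at day 2 and 3.73 on all arrays at day 5 (log2FC -2.83 and -2.50 at day 2). Both ended under the array median. The helicase cofactor Cdc45 read 7.73, 7.92 and 8.02, then 5.26 and then 5.19 on all arrays (log2FC -2.63 and -2.32 at day 2). The kinase pair fell too, with log2FC -2.08 and -1.78 for Cdc7 and -2.57 and -2.21 for its activator Dbf4 at day 2. The GINS subunits were uneven. Gins3 (log2FC -2.41 and -2.06 at day 2) and Gins2 (log2FC -1.53 and -1.13) fell, and Gins4 missed the 2-fold mark on the common scale at both times. Gins4 read 8.04 on every cycling array, 6.94, 6.91 and 6.85 at day 2 and 6.51, 6.51 and 6.48 at day 5. The groups did not overlap as deposited, but 48.8% of all genes tested were likewise lower without overlap at day 2 and 66.2% at day 5. The log2FC of Gins4 was -1.14 and -0.94 at day 2 and -1.54 and -0.63 at day 5.

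Of the 20 genes of DNA synthesis 18 fell at day 2 and 15 at day 5, with a median log2FC of -1.92 and -1.66 and of -2.63 and -1.81. The largest falls at day 2 were of single subunits of polymerase epsilon, primase and polymerase alpha. Pole, the catalytic subunit of polymerase epsilon, read 7.39, 7.41 and 7.39 in cycling myoblasts, 3.26 on all arrays at day 2 and 3.32 on all arrays at day 5 (log2FC -4.14 and -3.89 at day 2, with the day 2 level at or below the 30th percentile and the day 5 level under the array median). The primase subunit Prim1 read 8.27, 8.27 and 8.31, then 4.18 and then 4.35 on all arrays (log2FC -4.10 and -3.85 at day 2). Pola1, the catalytic subunit of polymerase alpha, read 7.62, 7.64 and 7.63, then 3.73 on all arrays, then 3.39, 3.39 and 3.44 (log2FC -3.90 and -3.63 at day 2). Their partners fell less at day 2, with log2FC -2.53 and -2.23 for Pole2, -2.12 and -1.75 for Prim2 and -1.77 and -1.44 for Pola2. Prim1, Pola1 and Pole2 were also under the array median at day 2, so the sizes of their falls are not exact. The lagging-strand polymerase delta fell less than Pole, Prim1 and Pola1, with log2FC -1.97 and -1.60 for Pold1, -1.64 and -1.27 for Pold3 and -1.24 and -1.04 for Pold2 at day 2. Pold2 read 8.02, 8.12 and 8.12, then 6.85, then 6.37, and was short of 2-fold on the common scale at day 5 (log2FC -1.72 and -0.80).

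The sliding clamp Pcna read 10.35 on every cycling array, 8.16, 8.16 and 8.11 at day 2 and 7.69 on all arrays at day 5 (log2FC -2.20 and -2.07 at day 2). Its 2 probe sets had the same value on every array. Of the clamp loader subunits Rfc3, Rfc4 and Rfc5 fell at both times, with log2FC of -2.24 and -1.96, -1.86 and -1.69, and -1.86 and -1.63 at day 2. Rfc2 read 8.13, 6.84 and 6.24 on all arrays of the successive groups. It fell at day 2 (log2FC -1.29 and -1.10) and was just short of 2-fold on the common scale at day 5 (log2FC -1.89 and -0.98). Rfc1, the large subunit, did not reach 2-fold at day 2 on either scale (log2FC -0.97 and -0.71), nor at day 5 on the common scale (log2FC -1.75 and -0.82). It read 7.46 on every cycling array, 6.51, 6.48 and 6.48 at day 2, and 5.67, 5.70 and 5.75 at day 5. The flap nuclease Fen1 (log2FC -2.04 and -1.70 at day 2) and the ligase Lig1 (log2FC -3.31 and -3.01) fell. Lig1 had the widest replicate spread, with 4.26, 4.26 and 3.67 at day 5.

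The single-stranded DNA binding complex RPA, which also serves in repair, had 1 subunit of 3 that fell at both times. This was Rpa1 (log2FC -1.75 and -1.60 at day 2, -2.30 and -1.43 at day 5). Rpa2 read 7.85, 8.04 and 8.06 at day 0, then 6.76 on all arrays of day 2 and 6.80 on all of day 5. It only just passed 2-fold at day 2 (log2FC -1.23 and -1.02), did not without the third cycling array (44 of 50 members then called), and was short of it on the common scale at day 5 (log2FC -1.18 and -0.28). Rpa3 depended on the probe set. The one with the higher mean read 5.07, 5.01 and 4.74 on all arrays of the successive groups, with log2FC -0.06 and 0.20 at day 2 and -0.33 and 0.41 at day 5, so that even its sign differs between the scales. The other, whose mean over the 9 arrays was 4.80 against 4.94, read 6.42 in cycling myoblasts and 4.41 at day 2 on all arrays, and 3.50, 3.65 and 3.54 at day 5. That is a log2FC of -2.02 and -1.66 at day 2 and of -2.86 and -2.29 at day 5. The platform lists the same accessions for both, and which one reports Rpa3 was not tested. The fit used the first, so Rpa3 counts as a member without a call.

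**Figure D4:**
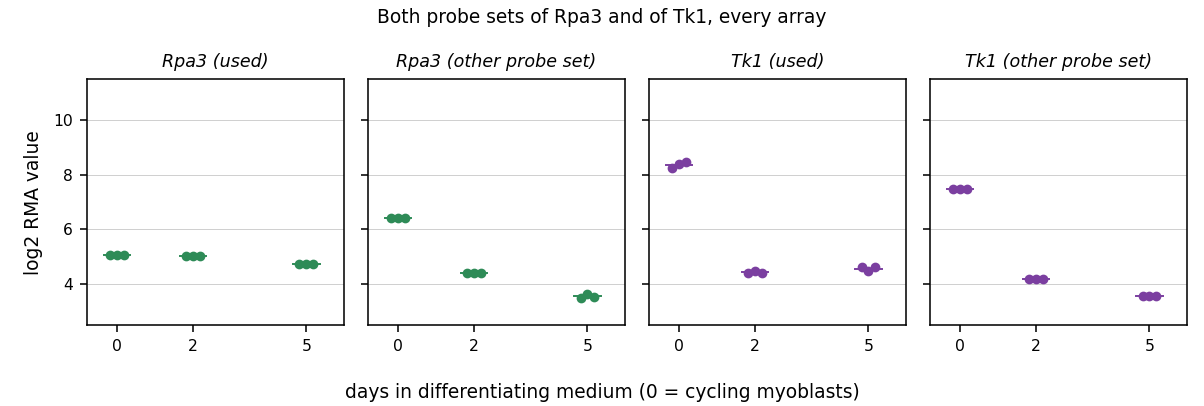
Log2 RMA values as deposited on every array (points, with the group mean as a line) against days in differentiating medium, for both probe sets of Rpa3 and of Tk1. The used probe set of Rpa3 is nearly flat (5.07 to 4.74) whereas the other declines from 6.42 to about 3.5, and both probe sets of Tk1 decline.

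Of the 5 nucleotide supply genes 4 fell at day 2 and 5 at day 5, with a median log2FC of -3.56 and -3.26 and of -3.99 and -3.15. Ribonucleotide reductase makes deoxyribonucleotides with a large subunit, Rrm1, and a small one, Rrm2, and the genes of the pair kept different time. Rrm2 read 10.80 on every cycling array, 6.86 at day 2 and 5.27 at day 5 (log2FC -3.94 and -3.81, then -5.53 and -4.75). Rrm1 read 10.60, 10.61 and 10.60 in cycling myoblasts and still 9.58 on all 3 arrays at day 2, then 6.61 on all 3 at day 5. No arrays overlapped between groups. As deposited, 48.8% of all genes tested were likewise lower without overlap at day 2 than in cycling myoblasts, and 79.5% at day 5 than at day 2. The log2FC of Rrm1 was -1.02 and -0.90 at day 2, short of 2-fold on the common scale, and -3.99 and -3.15 at day 5. Of its log2 fall by day 5, 25.6% as deposited and 28.6% on the common scale was present at day 2. The median of that share was 83.0% over all 50 members as deposited, and 102% over the 49 lower at both times on the common scale, where Pold3 had the next lowest share at 64.7%. As deposited, the share was lower for Rpa3 alone (18.8%, of a change under 2-fold), and the next were Orc2 at 44.0% and Rfc1 at 55.3%, so Rrm1 stood less far apart there.

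The enzymes of thymidylate supply fell early. Tk1, thymidine kinase, read 8.23, 8.40 and 8.48 before differentiation, 4.41, 4.47 and 4.41 at day 2 and 4.62, 4.47 and 4.62 at day 5 (log2FC -3.94 and -3.67 at day 2). A second probe set for Tk1 gave log2FC -3.29 and -2.97 at day 2 and -3.90 and -3.35 at day 5. Thymidylate synthase, Tyms, read 7.85, 7.93 and 7.97, then 4.42, 4.25 and 4.42, then 3.50 on all arrays (log2FC -3.56 and -3.26 at day 2). The dUTPase Dut, which keeps uracil out of DNA, fell with log2FC -3.26 and -2.95 at day 2.

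**Figure D5:**
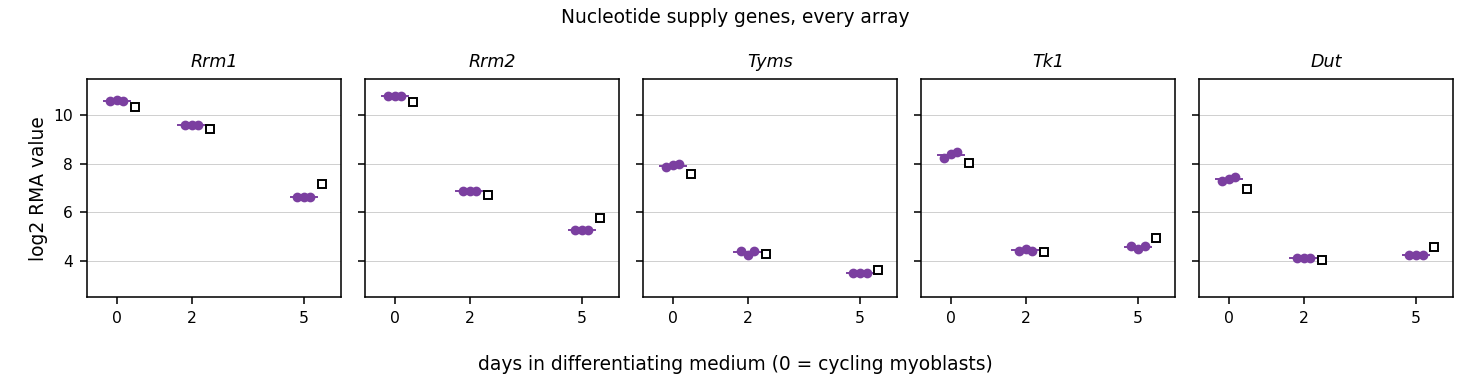
Log2 RMA values of the 5 nucleotide supply genes on every array against days in differentiating medium (0 is cycling myoblasts); filled points are arrays as deposited, lines their mean and open squares the group mean on the common scale. Rrm1 is at 9.58 at day 2 and 6.61 at day 5, whereas Rrm2, Tyms, Tk1 and Dut have dropped by day 2.

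The 3 genes of fork protection fell at both times. Claspin (Clspn), which carries the checkpoint signal, read 6.71, 6.80 and 6.71, then 3.74, 3.69 and 3.74, then 3.81 on all arrays (log2FC -3.02 and -2.71 at day 2, to levels under the array median). The partners Timeless and Tipin travel with the fork. Tipin read 8.50, then 6.37 on all arrays, then 5.42, 5.45 and 5.51 (log2FC -2.13 and -1.93 at day 2). Timeless read 5.96, 5.98 and 5.96, then 4.19 and 4.22 on all arrays (log2FC -1.78 and -1.44 at day 2, -1.75 and -1.05 at day 5). The chaperone CAF-1 places histones on new DNA. Its subunit Chaf1b read 7.86 on every cycling array, 3.69, 3.69 and 3.90 at day 2 and 3.17 on all arrays at day 5 (log2FC -4.11 and -3.87, then -4.70 and -4.22). Both later levels of Chaf1b were under the array median. The larger Chaf1a read 6.72, 4.49 and 4.35 on all arrays of the groups (log2FC -2.23 and -1.88, then -2.38 and -1.63).

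Between day 2 and day 5 little was called. Rrm1 was the 1 member of 50 that fell (log2FC -2.97 and -2.25, adjusted p = 3.56e-17 and 1.95e-11 with limma), against a background of 3.67% of all genes tested called lower, and 0 rose, against 0.766%. The members had a median log2FC of -0.45 (deposited) and 0.07 (common scale), beside -0.40 and 0.05 for all genes tested, and 16 of the 50 had opposite signs on the scales. Rrm2 (log2FC -1.59 and -0.94) and Prim2 (log2FC -1.09 and -0.87) were lower by 2-fold as deposited alone, and Gmnn was higher by 2-fold on the common scale alone (log2FC 0.65 and 1.07). On the deposited values alone 5 were lower, Rrm1 among them, against 15.4% of all genes tested, and on the common scale alone 1 was higher, against 2.78%. The genes that passed on 1 scale alone were named after their values were seen.

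The members were set beside other genes of replication and of nucleotide metabolism. Of 34 tested further replication genes 16 fell at day 2 and 17 at day 5, and 0 rose at either time, with a median log2FC of -1.15 and -0.91 at day 2. Of all genes tested, 8.41% were called lower and 6.04% higher at day 2, and 12.3% and 4.44% at day 5. The largest falls were of the topoisomerase Top2a (log2FC -6.16 and -5.99, to a level under the array median), the fork scaffold Wdhd1 (log2FC -3.58 and -3.31, to a level at or below the 30th percentile) and the histone chaperone Asf1b (log2FC -3.14 and -2.96). Mcm8, a relative of the ring subunits, fell (log2FC -2.30 and -1.95). Between day 2 and day 5, Atad5 was the 1 of the 34 that fell (log2FC -1.29 and -1.12, to a level at or below the 30th percentile), against 3.67% of all genes tested. The accessory polymerase subunits Pold4 (log2FC 0.34 and 0.59), Pole3 (log2FC -0.12 and 0.15) and Pole4 (log2FC -0.44 and -0.23) had no call. Orc5 fell (log2FC -1.46 and -1.17), and Orc3 (log2FC -0.56 and -0.37) and Orc4 (log2FC -0.46 and -0.28) had no call, as for Orc2. Of 23 tested further nucleotide genes 8 fell at day 2 and 9 at day 5, and 0 rose, against the same shares of all genes tested. Their median log2FC was -0.93 and -0.78 at day 2. Dctd (log2FC -2.67 and -2.43), Dck (log2FC -2.51 and -2.22) and Cad (log2FC -2.37 and -2.17), which serve pyrimidine nucleotide supply, fell most on the common scale. As deposited, Shmt1 (log2FC -2.43 and -2.06), an enzyme of folate metabolism, ranked before Cad. Rrm2b, the small reductase subunit used outside S phase, had no call (log2FC 0.06 and 0.39 at day 2, -0.36 and 0.53 at day 5). Whether these lists differ from the 50 members was not tested.

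All 13 muscle markers lay above the array median at every time. At day 2, 8 of them rose, among them Myog and Ckm, against 6.04% of all genes tested. The 2 that fell, against 8.41%, were Myf5 and Pax7, which mark muscle precursors. At day 5, 7 were called higher and 4 lower, against 4.44% and 12.3% of all genes tested. Myod1 (log2FC -2.04 and -1.43) and Cdh15 (log2FC -1.95 and -1.10) had joined Myf5 and Pax7, and Myog had no call (log2FC 0.51 and 1.25). Primary muscle cultures can hold other cells. Of 9 measured fibroblast markers 4 were above the array median in each group and 3 at or below the 30th percentile. Their summed level (log2) went from 9.49 to 9.55 in cycling myoblasts to 7.62 at day 2 and 7.19 to 7.20 at day 5, moving the same way as the replication genes. Col3a1 (log2FC -2.87 and -2.67 at day 2) and Pdgfrl (log2FC -2.53 and -2.16) were the 2 of 6 tested fibroblast markers that fell, against 8.41% of all genes tested at day 2. The other 4 had no call at either time, and at day 5 all 4 were positive on the common scale, where the median of the 6 was 0.40. The part of such cells in the replication genes' fall was not tested. Of 8 macrophage markers 1 was above the median in each group, with summed levels of 6.40, 6.72 to 6.73 and 6.43 to 6.44. It was Cd68 in cycling myoblasts, Itgam at day 2 and Tyrobp at day 5, and Itgam was called higher at day 2 (log2FC 1.96 and 1.86). The 6 endothelial markers had none above it, with 5.67 to 5.69, 5.93 to 5.95 and 5.98 to 5.99. Of 4 adipocyte markers 1 was above in each group (5.61 to 5.66, 5.82, and 5.54 to 5.65), and of 3 Schwann cell markers 1, then 2, then 2 (5.49, 5.94, and 5.50 to 5.54). The Schwann cell marker S100b was called higher at day 2 (log2FC 1.43 and 1.28).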

How the data were processed

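Per the labels' protocols, total RNA from mouse primary myoblasts and myotubes carried a biotin label and went onto Affymetrix arrays. The deposited values are log2 expression values that the authors made with RMA per replicate set, per the submitters' processing notes and the series' design; no version of it is given there. Sorted values of 2 arrays differed on average by at most 0.0251 within a time point and at least 0.188 between them, so the set was the time point. Of 35556 probe sets, 21789 named 1 gene, 1621 several and 12146 none, and only the first were used. A gene was tested if 3 arrays or more had it above their 30th percentile. One model over all 9 arrays was fitted in R 4.3.3 by lmFit and eBayes of limma 3.58.1, as deposited and after quantile normalization over all arrays, with Benjamini-Hochberg adjustment over 16582 genes. The fit was tried on simulated data with independent noise, without tied values and without normalization per set. That trial checks the code and not the p-values of these arrays. Groups came from the titles. The number of arrays limits the precision.

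The members and lists were chosen with earlier results of these data known. Named in full were, in each step, the 3 genes with the largest falls and the one with the smallest change at day 2, every member without a call, and calls between day 2 and day 5; of the further lists, the 3 largest falls at day 2 and any gene that rose. Mcm8, Orc3, Orc4, Orc5, Atad5, Pold4, Pole3, Pole4, Rrm2b, Shmt1 and the markers given with values were chosen after their values were seen. Correlations of same-numbered arrays' deviations lay between -0.001 and 0.04, so the deposited values show no pairing by replicate number. As values were made per set and many are tied, this cannot tell whether same-numbered arrays shared a culture or animal. The alternatives covered scaling, filter, probe sets, limma settings, samples in the fit, the block and leaving out arrays. Promoter sequences and starts are from RefSeq (GRCm38.p6).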

Additional observations from a re-analysis of the deposited data

How the results depend on the processing

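The 45 falls at day 2 and the 42 at day 5 held, gene for gene, without a filter, with a filter at the array median, with the mean of probe sets, with trend and robust on, with 2 groups in the fit and with the replicate number as a block. Leaving out 1 array in turn gave 44 to 45 falls at day 2 (Rpa2 was lost without the third cycling array) and 42 at day 5. As deposited alone, 47 and 48 fell. With arrays centred on the median 46 and 47 fell, and with arrays centred on the 75th percentile 42 and 40 did, without Pold2, Rfc2 and Rpa2 at day 2 and without Orc1 and Timeless at day 5.

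Day 5 against day 2 depended on the scale: 5 members were lower as deposited alone, 2 with arrays centred on the median and 1 otherwise, and 1 (Gmnn) was higher on the common scale and with the 75th percentile. The members' median log2FC there was -0.45 as deposited, 0.07 on the common scale and 0.21 with the 75th percentile. By step it turned to 0.14 (synthesis, common scale) and, with the 75th percentile, to 0.10 (licensing), 0.25 (firing), 0.20 (synthesis) and 0.29 (chromatin assembly). Rpa3 turned to 0.20 and 0.41 on the common scale, 0.01 and 0.02 with the median and 0.24 and 0.63 with the 75th percentile, at day 2 and day 5, and with the mean of its probe sets was -1.04 and -1.60 as deposited but -0.73 and -0.94 on the common scale, so it still had no call. Gmnn at day 5 against cycling myoblasts was 0.07 with the 75th percentile. The cause was not tested. Levels under the array median are not shown to lie above background.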
